A study of Mus musculus with 6 samples.

Results

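The miR-216/miR-217 cluster is a group of microRNA hairpins of 1 locus on mouse chromosome 11. Its members were taken by name, as every row for a mature arm of miR-216a, miR-216b, miR-216c or miR-217, which gave 7 of the 1028 microRNA rows measured. The rows are mmu-miR-217-5p and both arms of each of miR-216a, miR-216b and miR-216c. The cluster was chosen by the KO and EV read counts of mmu-miR-217-5p and mmu-miR-216a-3p, written below without the species prefix, so the differences between KO and EV are given for it as a description, and no test is drawn from them.

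Small-RNA sequencing was used to count microRNAs in a line of mouse epicardial cells, the cells of the outer layer of the heart, labelled MCEC. All 6 libraries came from cells transduced with lentivirus, 3 with an empty vector (EV) and 3 with an Hdac3 sgRNA for CRISPR/Cas9 knockout (KO). Values of single libraries are given in the order of replicates 1, 2 and 3. Hdac3 is a histone deacetylase of repressor complexes, and the series asks which microRNAs follow its loss in the epicardium. Whether the empty vector carried Cas9, whether the KO cells were 1 clone and whether replicates were separate cultures are not stated in the sources, so spreads may be technical. The libraries held 11824881 to 13412774 counts. miR-21a-5p took 63.0% to 70.1% of them, and the mRNAs that define epicardial cells, like Hdac3 itself, were not measured.

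A microRNA is cut from the stem of a hairpin, and either arm can be loaded into an Argonaute protein, where its seed (bases 2 to 8) pairs with target mRNAs. The miR-216 and miR-217 hairpins are best known from the pancreas, where acinar cells, which make the digestive enzymes, hold them at high levels, and from blood, where they serve as markers of injury to that organ. Sirt1 is a known target of miR-217.

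The 7 arms are shown because their seeds separate them from each other and from the other mouse microRNAs in RefSeq. Sequences are from RefSeq on GRCm38.p6, 5′ to 3′, with the seed in capitals.
miR-217-5p: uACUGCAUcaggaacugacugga
miR-216a-5p: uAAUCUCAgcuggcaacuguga
miR-216b-5p: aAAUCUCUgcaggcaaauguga
miR-216a-3p: cACAGUGGucucugggauuaug
miR-216b-3p: aCACUUACcuguagagauucuu
miR-216c-5p: gAAGAAUCucuacagguaagugu
miR-216c-3p: uUUGCCUGcagagauuucccagu

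No other mouse microRNA in the RefSeq table shared the seed of any of the 7 arms. The seeds of miR-216a-5p and miR-216b-5p match at 6 of 7 bases and differ by the substitution A8U, counted from the 5′ end with the miR-216a-5p base first. Over their whole length, 18 of 22 bases of that pair are identical. The first 8 bases of miR-216a-3p recur at bases 3 to 10 of miR-27a-3p and miR-27b-3p. Those at bases 3 to 8 fall within the miR-27 seed, in a shifted frame. The longest run that miR-217-5p or miR-216a-3p shared with any of 842 other microRNAs of the table was 8 bases.

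Mir216b (chr11:28746191-28746276), Mir216a (chr11:28757012-28757083) and Mir217 (chr11:28763728-28763835) lie on the plus strand, in that order, within 17645 bases. The gaps between them are 10735 and 6644 bases. Mir216c (chr11:28746198-28746266) lies on the minus strand, inside the Mir216b hairpin. RefSeq places Mir216b and Mir216c within the long noncoding gene Mir217hg (chr11:28730633-28751781). In GENCODE M21, Mir216a and Mir217 are intronic by position, between exon 2 (ending at 28754146) and exon 3 (starting at 28770485) of the long noncoding gene Gm12082. Among names with a RefSeq position, the nearest other microRNA of the table on the chromosome, miR-218-5p at Mir218-2, lies 6853005 bases away.

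**Figure D1:**
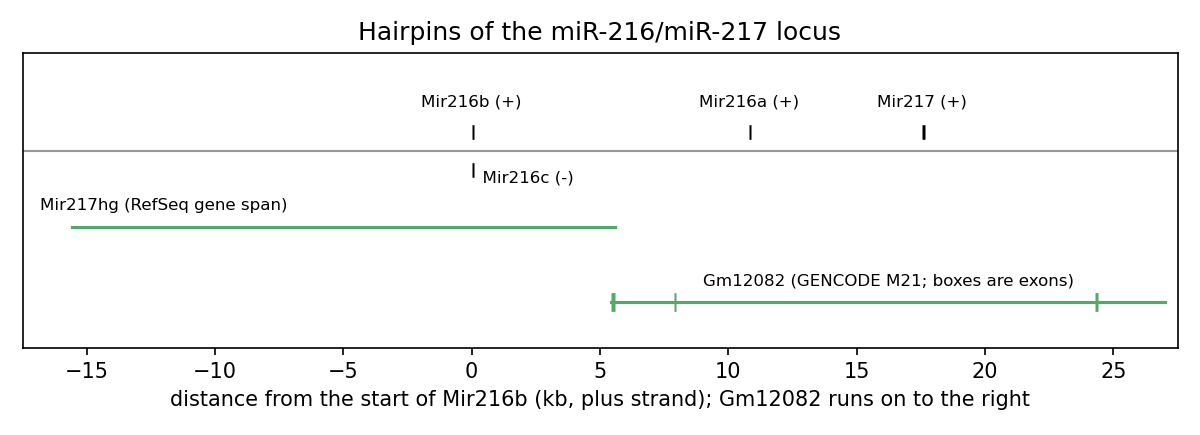
Positions of the 4 hairpins and of the noncoding genes around them, as distance in kb from the start of Mir216b (horizontal axis). Hairpins of the plus strand are above the line and the hairpin of the minus strand is below it. The noncoding genes are drawn lower for room, and their place does not show their strand. Mir216c sits opposite Mir216b, and Mir216a and Mir217 fall in 1 intron of Gm12082.

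The arms that have a row in the table are in capitals in the hairpins of Mir216a and Mir217, which carry the arms with the most reads of the cluster.
Mir216a: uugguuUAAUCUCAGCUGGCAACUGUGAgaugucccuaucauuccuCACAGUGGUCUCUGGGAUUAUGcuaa
Mir217: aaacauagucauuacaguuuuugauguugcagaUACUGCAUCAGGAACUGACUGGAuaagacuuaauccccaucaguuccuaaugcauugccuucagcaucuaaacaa

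The cluster was scarce in these cells. Its 7 arms had 849 reads in all 6 libraries together, 11.2 per 1000000 counts, and miR-217-5p held 74.7% of them. By mean level the order was miR-217-5p at 8.39 CPM, miR-216a-3p at 1.45, miR-216b-5p at 0.660, miR-216a-5p at 0.564, miR-216b-3p and miR-216c-5p at 0.0764 each and miR-216c-3p at 0.0106. CPM are counts scaled to 1000000 after each library total was multiplied by a TMM factor, which sets most microRNAs equal between libraries, and 1 read was worth 0.0637 to 0.0892 CPM. In every library miR-217-5p stood above miR-216a-3p and miR-216a-3p above miR-216b-5p, while miR-216b-5p and miR-216a-5p changed places between libraries. Adaptor ligation favours some sequences, so this is an order of reads and need not be one of molecules.

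miR-217-5p, the leading arm of the Mir217 hairpin, was about doubled in KO cells. Its reads were 93, 50 and 71 in EV and 157, 131 and 132 in KO. Every KO library was above every EV library, and EV 2 was the lowest. The levels were 5.92, 4.08 and 6.34 CPM in EV and 12.7, 10.4 and 10.8 CPM in KO, a mean of 5.45 ± 1.20 against 11.3 ± 1.23 CPM (SD, n = 3 each). The fitted log2 fold change of KO over EV was 1.05 (SE 0.19, 95% interval 0.63 to 1.48), or 2.08-fold. Counted from the highest log2 fold change it was number 3 of the 460 microRNAs that passed the filter on low counts, and number 7 by size in either direction. Called means an edgeR adjusted p of at most 0.05 over all tested microRNAs.

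miR-216a-3p, from the next hairpin upstream, showed a difference of similar size on far fewer reads. It had 13, 11 and 14 reads in EV against 23, 24 and 24 in KO. The KO counts were nearly equal and all lay above the EV counts. In CPM the means were 0.992 ± 0.226 and 1.91 ± 0.0503 (SD, n = 3 each). The log2 fold change was 0.96 (SE 0.29, 95% interval 0.30 to 1.62), or 1.95-fold. At these counts the exact Poisson 95% interval of 1 library is wide, 5.49 to 19.7 reads for EV 2 and 14.6 to 34.5 for KO 1, and covers counting error only.

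**Figure D2:**
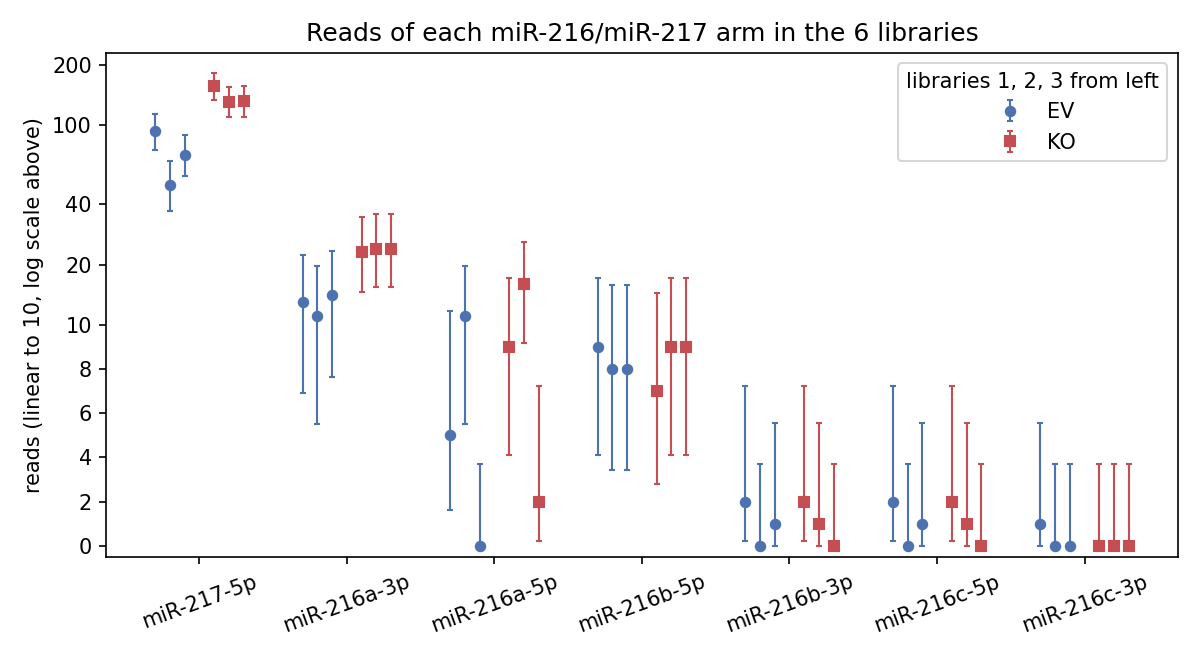
Reads (vertical axis, linear to 10 and logarithmic above) of the 7 arms in each library, with EV as circles and KO as squares, and bars for exact Poisson 95% intervals. For miR-217-5p and miR-216a-3p the KO points lie above all EV points, and for the other arms the groups overlap.

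Of the 7 arms, 2 passed the filter, in both groups, and 1 of them, miR-217-5p, was called higher, beside 5% of all 460 tested microRNAs called higher in KO and 7.61% called in either direction. miR-216a-3p was not called. Both arms had non-overlapping groups, with KO above EV, as did 15.2% of the tested microRNAs, and 29.1% had groups that did not overlap in either direction. The median log2 fold change of all tested microRNAs was -0.01. These counts describe the contrast by which the cluster was chosen, and nothing is read from them. The authors' deposited table of 78 microRNAs, out of 461 as its first adjusted p implies, holds both arms, with log2 fold changes of 0.97 for miR-217-5p and 0.78 for miR-216a-3p. By that rule a share of 16.9% of microRNAs was called, and a share of 9.11% was called higher in KO. In the authors' deposited table the group means are 68.8 and 141 normalized counts in EV and KO for miR-217-5p and 12.5 and 23.9 for miR-216a-3p, whose log2 ratios are 1.04 and 0.93, so its log2 fold changes are smaller than the ratios of its own means.

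The proportion of the leading Mir217 and Mir216a arms did not separate the groups. There were 7.15, 4.55 and 5.07 reads of miR-217-5p for each read of miR-216a-3p in EV and 6.83, 5.46 and 5.50 in KO. All 3 KO ratios lay within the range of the EV ratios. As a share of all cluster reads, miR-217-5p made up 71.3% of 300 reads in EV (exact binomial 95% interval 65.9% to 76.4%) and 76.5% of 549 in KO (72.7% to 80.0%). These intervals pool the reads of a group and cover counting error only. By library the share was 74.4%, 62.5% and 74.7% in EV, and 78.5% in KO 1 and 79.0% in KO 3. KO 2 lay below EV 1 and EV 3, so the groups overlapped.

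miR-216a-5p, the opposite arm of the Mir216a hairpin, varied more between replicates than between groups. It had 5, 11 and 0 reads in EV and 9, 16 and 2 in KO. The groups overlapped, and replicate 3 was the lowest of each. The 0 in EV 3 allows up to 3 reads, or 0.268 CPM. Its spread within groups was 5.65 times that of counting error (chi-square per degree of freedom), against 2.43 for miR-217-5p and 0.331 for miR-216a-3p. Without the filter its log2 fold change was 0.79 (95% interval -0.40 to 1.97), which spans both 0 and the value of its partner arm. It was 0.31 without EV 3 and 1.28 without KO 3. The fit without the filter gave miR-451a, which varied widely between replicates, an SE of 0.17, against 1.64 with the filter. Its intervals can thus be too narrow for an arm whose replicates vary.

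The 3p arm of Mir216a outnumbered the 5p arm in every library but EV 2, where both had 11 reads. miR-216a-3p held 70.4% of 54 Mir216a reads in EV (exact binomial 95% interval 56.4% to 82.0%) and 72.4% of 98 in KO (62.5% to 81.0%), again for counting error only. By library the share ran from 50% in EV 2 to 100% in EV 3, and from 60% in KO 2 to 92.3% in KO 3. The spread between libraries of 1 group was thus wider than the gap between the groups.

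miR-216b-5p, whose seed is nearest to that of miR-216a-5p, had the same total in both groups. Its reads were 9, 8 and 8 in EV and 7, 9 and 9 in KO, which makes 25 in each group. No library stood out, and the groups overlapped. Without the filter the log2 fold change was 0.04 (95% interval -1.04 to 1.12), which includes the 1.02 (0.63 to 1.41) of miR-217-5p in the same fit. The limit given above for intervals of that fit holds here too. The difference between the hairpins was not tested.

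miR-216b-3p and miR-216c-5p come from opposite strands of the same place and had the same counts. Both had 2, 0 and 1 reads in EV and 2, 1 and 0 in KO. The whole of miR-216b-3p, 22 bases, is the reverse complement of a run inside miR-216c-5p, 23 bases. The sources used here do not say whether reads were counted by strand, so the 6 reads may be the same ones entered under both names, and the cluster total would then be lower by that number. Among 19 pairs of single-locus microRNAs of the table that overlap on opposite strands by their RefSeq positions, the 3 whose ends lie within 1 base, this one included, had equal counts in all libraries, on 3 to 8 reads per name, and 1 of the other 16 did. Some of those 16 had near-equal totals on many reads, as miR-374c-3p and miR-374b-5p (27153 and 27220) and miR-24-2-5p and miR-3074-2-3p (12051 and 11907). Others were far apart, as miR-299a-3p and miR-299b-5p (18705 and 33). Whether pairs share reads was not tested. The split of the pairs by their ends was chosen after the counts were seen. Names missing from the RefSeq table could not enter the pairs, among them miR-126a-5p, whose counts equalled those of miR-126b-3p in all libraries on 226 reads each. The other pair of the hairpin, miR-216b-5p and miR-216c-3p, overlaps by only 17 bases and differed, with 50 reads against 1. miR-216c-3p was seen once, in EV 1.

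The pattern of miR-217-5p over the 6 libraries was most like that of miR-34c-5p, by Pearson's r of log2 CPM among tested microRNAs outside the cluster (r = 0.97), followed by miR-466p-5p, miR-320-3p, miR-501-3p and miR-532-5p (r = 0.96, 0.96, 0.96 and 0.95). All are higher on average in KO, with log2 fold changes of 0.65, 1.00, 0.24, 0.41 and 0.59, and miR-34c-5p and miR-532-5p were called. For miR-216a-3p r was 0.92, which put it at rank 20. The 6 libraries form 2 groups and share their scaling, so a difference between groups alone gives a high r, and these values are a description.

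Other microRNAs known from pancreatic acinar or islet cells gave 1 call. Of 15 on the list, 11 were in the table and 5 were tested, of which 1 rose, 0 fell and 4 were not called by edgeR, beside 5% of all tested microRNAs called higher and 7.61% called in either direction. The median log2 fold change of the 5 was 0.08, beside -0.01 for all tested microRNAs. miR-7a-1-3p, the lesser arm of a miR-7 hairpin known from islets, rose from 1.78, 2.86 and 2.59 CPM in EV to 4.13, 4.31 and 4.42 CPM in KO (log2 fold change 0.85, SE 0.20, edgeR adjusted p = 0.0314). The KO libraries lay close together above the EV libraries. The call was lost with library size alone and without EV 1, EV 2, KO 1, KO 2 or KO 3 (edgeR adjusted p up to 0.140).

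miR-7a-5p, the main arm from miR-7 hairpins, had a log2 fold change of 0.30 (SE 0.19). miR-148a-3p, abundant in acinar cells and also in many others, stood at 30334 ± 2338 CPM in EV and 31989 ± 454 CPM in KO (SD, n = 3 each), with a log2 fold change of 0.08 (95% interval -0.14 to 0.29). miR-148a-5p, its opposite arm, was at -0.05 (SE 0.07). miR-184-3p, also known from islets, had 9, 5 and 93 reads in EV and 13, 33 and 5 in KO, with a log2 fold change of -1.10 (SE 1.02). Its sign rested on EV 3, without which it was 1.44 (SE 0.72), and with the filter it was not called with or without that library. The fit without the filter called it lower (-1.13, SE 0.29, edgeR adjusted p = 0.0035). miR-375-3p, the defining islet microRNA, was at or near 0 throughout, with 0, 3 and 3 reads in EV and 0, 3 and 1 in KO. The other members in the table, miR-7a-2-3p, miR-7b-5p, miR-802-3p, miR-153-3p and miR-153-5p, did not pass the filter.

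**Figure D3:**
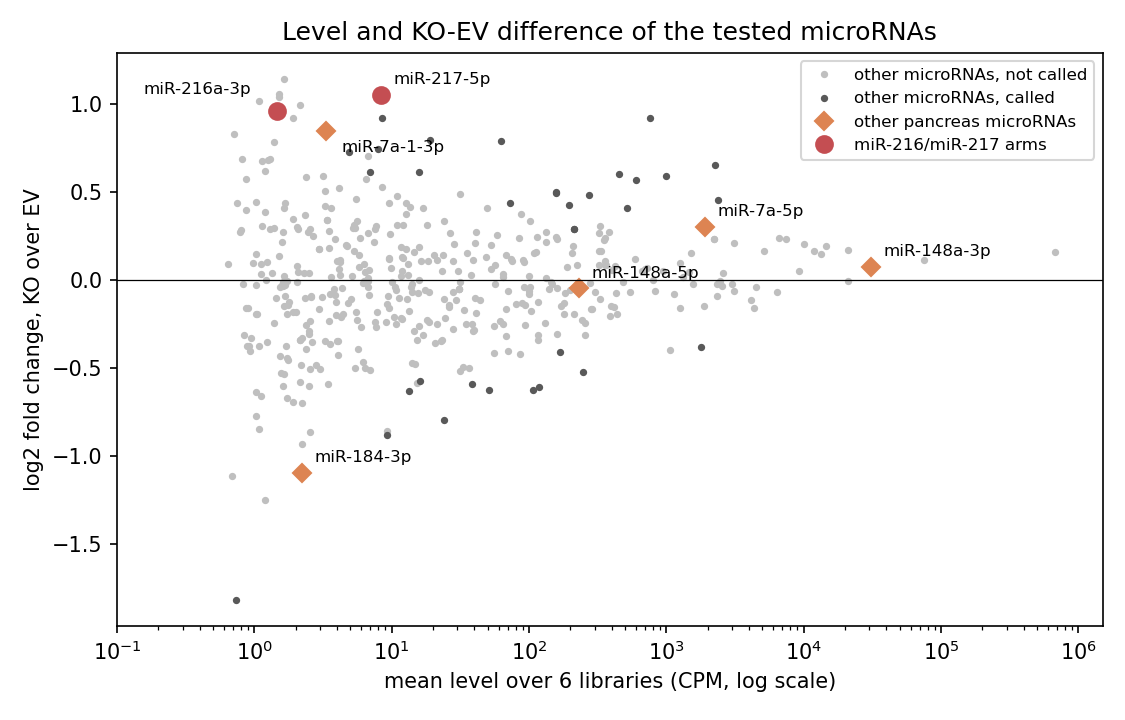
Log2 fold change of KO over EV (vertical axis) against mean level in CPM (horizontal axis, log scale) for the 460 tested microRNAs, with the arms of the cluster as large circles and other pancreas microRNAs as diamonds. miR-217-5p at 1.05 and miR-216a-3p at 0.96 lie near the upper edge at low levels, and miR-148a-3p lies near 0 at a high level.

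Markers of other cells differed between some libraries. miR-451a of red blood cells stood at 54.7 CPM in EV 3 and 62.7 CPM in KO 2 and at 0.243 to 2.45 CPM elsewhere, and the neural miR-9-5p was also highest in those libraries. From the pancreas list, miR-184-3p (93 reads in EV 3 and 33 in KO 2) and miR-7b-5p (17 and 9) were highest there too. Without EV 3 and KO 2 the log2 fold changes were 1.22 (SE 0.22) for miR-217-5p and 1.15 (SE 0.45) for miR-216a-3p, as large as with them. The liver microRNA miR-122-5p had 40 reads in KO 1, the library with the most miR-217-5p, and 5 to 10 elsewhere. It did not pass the filter. The fit without the filter called it higher in KO (log2 fold change 1.44, SE 0.45, edgeR adjusted p = 0.0251), and the limit of that fit given above holds here too. Without KO 1 miR-217-5p stood at 0.96 (SE 0.20). The summed level of 5 epithelial markers was 41.4 to 50.0 CPM in EV and 25.3 to 27.3 CPM in KO, with 2 of 4 tested members called lower, beside 2.61% of all tested microRNAs called lower. The part of these markers in the values of the cluster was not tested. Of the red blood cell markers miR-144-3p had 1 read in all. The summed level of the 2 endothelial markers was 36.6 to 42.1 CPM in EV and 34.7 to 35.4 CPM in KO, and that of the 3 striated muscle markers was 26.2 to 27.2 CPM in EV and 20.9 to 24.9 CPM in KO. Most of the muscle sum was miR-206-3p, at a log2 fold change of -0.35 (SE 0.13), while miR-1a-3p went the other way, from 38 reads in EV to 76 in KO (log2 fold change 1.06, SE 0.30). Neither was called, and the median of those 2 tested members was 0.36. The 4 mesenchymal markers summed to 589177 to 837077 CPM in EV and 761177 to 833581 CPM in KO, so those sums overlapped. Most of that sum was miR-21a-5p, so it shows little of the other members. The 4 had log2 fold changes of both signs, with a median of 0.01, and none was called.

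Scaling and single libraries moved the differences of miR-217-5p and miR-216a-3p, by which the cluster was chosen, without turning them. miR-217-5p lay between 0.86 without EV 2 and 1.22 without EV 3 and KO 2. It stood at 0.89 (SE 0.22) with library size alone, where it was not called. With that scaling the median of all tested microRNAs was -0.16. miR-216a-3p lay between 0.81 with library size alone and 1.15 (SE 0.45) without EV 3 and KO 2.

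**Figure D4:**
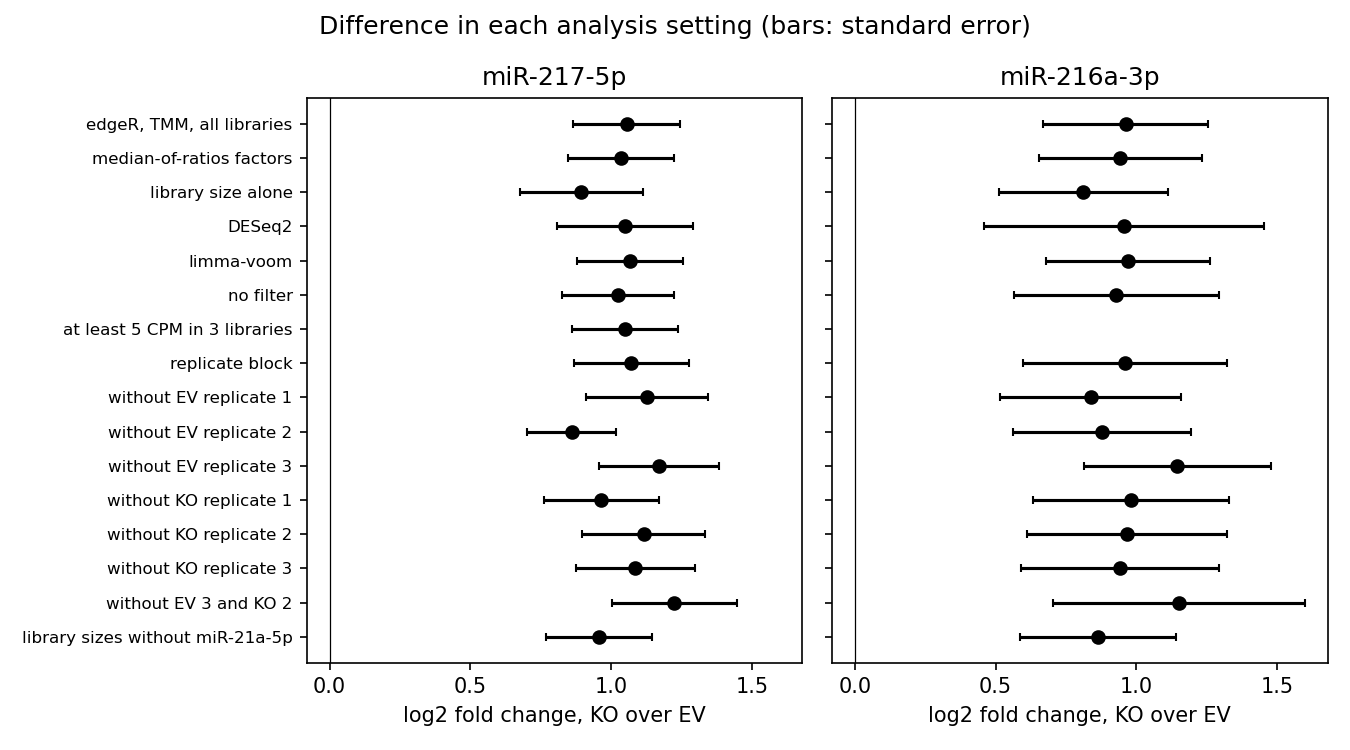
Log2 fold change of KO over EV (horizontal axis, bars are standard errors) for miR-217-5p and miR-216a-3p under each analysis setting (rows). All points lie above 0, and miR-216a-3p has no point where it did not pass the filter of 5 CPM in 3 libraries.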

How the data were processed

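The deposited count table holds the authors' whole-number read counts for 6 small-RNA libraries. The deposited TPM values equal counts scaled to 1000000 per library (to within 3.49e-10) and were not used in tests. For each listed microRNA the authors deposited a signal (the normalized mean of each group, without an error), the log2 fold change of KO over EV, and a raw and an adjusted p-value. The submitters' processing notes name Bowtie, DESeq 1.8.3 and mm10. The handling of reads that match several microRNAs and of strand was not stated in those sources.

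All 1028 rows entered edgeR 4.0.16 (R 4.3.3) with TMM factors, filterByExpr (minimum count 10, minimum total 15), the two-sided quasi-likelihood F test and Benjamini-Hochberg adjustment at 0.05. Log2 CPM for r used a prior count of 2. The fit was tested on simulated data. Alternatives included DESeq2 1.42.0 and limma 3.58.1 (voom). 2 alternatives, leaving out EV 3 and KO 2 together and library sizes without miR-21a-5p, were chosen after seeing the data. The members and lists were chosen with earlier results of these data known. Named microRNAs were all members, tested pancreas-list members, the 5 highest r and markers of the libraries. miR-122-5p, miR-126a-5p, miR-126b-3p, miR-1a-3p, miR-206-3p, miR-144-3p, miR-375-3p and the other untested list members were named after their values were seen. So were the antisense pairs outside the cluster that are given as examples. RefSeq held 849 of the 1028 names, all 7 members included.

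Within groups, all pairs of libraries differed by more than counting noise (smallest chi-square 9040 on 459 degrees of freedom).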

Additional observations from a re-analysis of the deposited data

How the results depend on the processing

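The log2 fold change of miR-217-5p was above 0 in all 15 alternatives and that of miR-216a-3p in all 14 that gave a value, which describes the contrast that chose them. With library size alone miR-217-5p stood at 0.89, no longer past the threshold. miR-216a-3p passed it without EV 3 (1.15); it did not pass the filter of 5 CPM in 3 libraries, and DESeq2 gave it no adjusted p. Leaving out 1 library at a time gave 0.86 to 1.17 for miR-217-5p, 0.84 to 1.15 for miR-216a-3p, 1 to 2 called arms of the cluster, 15 to 59 called microRNAs in all and 0 to 2 called pancreas microRNAs. Those fits tested 2 or 3 arms, 475 to 481 microRNAs in all and 5 pancreas microRNAs. With library size alone 0 arms, 0 pancreas microRNAs and 5 microRNAs in all were called (1 higher and 4 lower, against 23 and 12). Without the filter 56 of 1028 microRNAs and 3 of 11 pancreas microRNAs were called. Without EV 3 and KO 2 the counts were 88 of 470 and 2 of 4. The 3 without the filter were miR-7a-5p and miR-7a-1-3p, higher, and miR-184-3p, lower. The limit given above for intervals of that fit holds for these 3 calls too. The pancreas count was 0 with DESeq2, which gave miR-7a-1-3p no adjusted p, and 0 with the 5 CPM filter, which removed it. Library sizes without miR-21a-5p moved the median of all tested microRNAs to -0.11 and gave 18 higher and 25 lower. With the replicate block miR-217-5p stood at 1.07 and miR-216a-3p at 0.96, with 34 microRNAs called, 1 arm of the cluster and 1 pancreas microRNA. The labels do not say whether the replicate numbers pair libraries. EV and KO libraries of the same number had correlations of deviations of 0.30, -0.04 and -0.22. With 3 libraries per group these cannot settle it. Among RefSeq sequences, seed sharing gave no microRNA outside the cluster, so that comparison gave no value. Few reads limit the precision of every arm, least that of miR-217-5p.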
